A study of Mus musculus with 30 samples.

Results

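The nuclear-encoded subunits of complex I were followed in 30 RNA-seq libraries of AML12 cells, a mouse hepatocyte line. The rule took protein-coding genes whose symbols begin with Ndufa, Ndufb, Ndufc, Ndufs or Ndufv and left out the Ndufaf assembly factors, which gave 38 members among 49089 gene identifiers. Of these, 37 had at least 1 count, and 35 passed the filter on low counts and entered the tests among 11368 genes. Cells received a nonsilencing siRNA (Control) or siRNAs against FoxK1 (FoxK1 KD), FoxK2 (FoxK2 KD) or both (DKD), all by transient knockdown in 1 cell line. All cultures were serum starved overnight, and were then analysed without insulin (basal) or after 100 nM insulin for 6 h. The study describes basal cells as mock treated over this time, whereas their labels do not give the 6 h. Time after starvation may thus differ together with insulin. Each of the 8 groups had 4 libraries, except Control and DKD cells after insulin with 3 each. The labels do not say whether replicates were separate cultures, so p-values measure the spread between these libraries, which may be technical.

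Complex I (NADH:ubiquinone oxidoreductase) is the entry point of the mitochondrial respiratory chain: it takes electrons from NADH, passes them along a row of iron-sulfur clusters to ubiquinone and pumps protons. Its peripheral arm, in the matrix, holds the core subunits that oxidise NADH (N module) and reduce ubiquinone (Q module), and its membrane arm pumps protons. The pumping core is encoded by mitochondrial DNA, whereas the other core subunits and all accessory subunits, which surround and stabilise the core, are encoded in the nucleus. FoxK1 and FoxK2 are forkhead transcription factors, and the comparisons ask how complex I transcripts stood when either or both were reduced, before and after insulin.

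Library totals ranged from 2141460 to 5668270 counts. Both targets were reduced: Foxk1 stood at 45.2 to 64.6% and Foxk2 at 33.7 to 40.4% of the Control mean wherever they were knocked down. Hepatocyte markers were partly present, with Hnf4a at 89.6 to 152 CPM (counts scaled to a common library size) and Alb at 2.50 to 65.2 CPM, while Apoa1 did not exceed 2.82 CPM. The biliary markers Krt19 and Sox9 were at 323 to 753 and 168 to 296 CPM, whereas Epcam, the macrophage gene Adgre1 and the stellate cell gene Lrat were at 0 in all libraries. The leukocyte markers Ptprc and Cd68 and the fibroblast marker Col1a1 were detected, at up to 2.78, 2.96 and 1.39 CPM. The summed biliary markers were at 639 to 1073 CPM in basal Control and 643 to 694 CPM in basal DKD cells. For the summed hepatocyte markers the ranges were 1482 to 2414 and 2276 to 2370 CPM. That sum was made up mostly of Krt8 (433 to 983 CPM) and Krt18 (812 to 1668 CPM), not of Alb or Hnf4a. The part of these markers in the results was not tested. Replicate 1 of basal Control cells stood apart. It lay outside the range of the other 3 basal Control libraries for 73.4% of all tested genes and for 25 of the 35 members (71.4%), 15 above and 10 below. By the same measure, replicates 2, 3 and 4 lay outside the range of the others for 40.0%, 40.0% and 48.6% of the members.

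**Figure D1:**
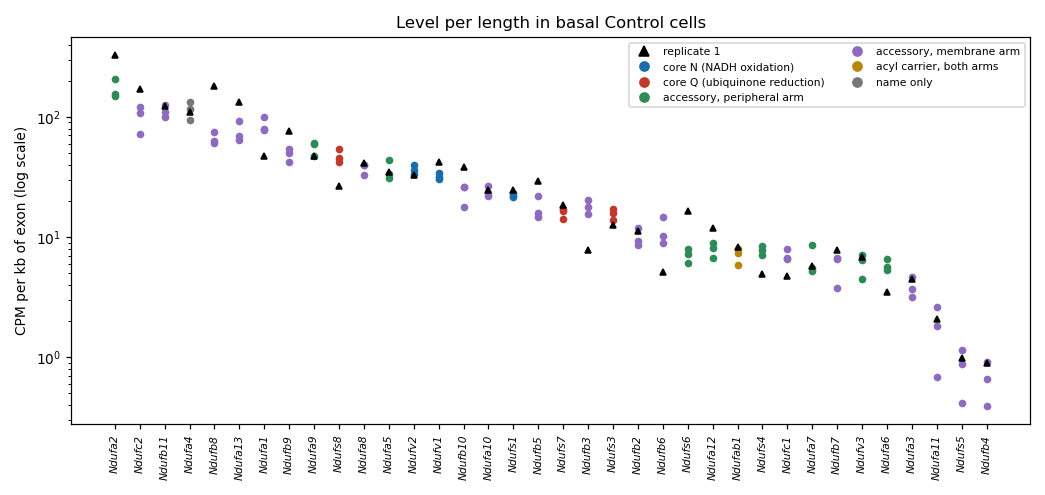
Level per length of members with counts in basal Control cells, in CPM per kb of exon on a log axis, ordered by mean. Coloured points are replicates 2 to 4, coloured by role, and black triangles are replicate 1, which stood above the others for Ndufb8 and Ndufa2 and below them for Ndufs8.

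The members spanned more than 2 orders of magnitude in level per length. Length was that of all annotated exons of a gene together, at 8086 bases for Ndufs1 and 572 for Ndufa2. It need not be that of the transcripts expressed, and its part in this order was not tested. In basal Control cells Ndufa2, an accessory subunit of the peripheral arm, was highest at 209 ± 83.6 CPM per kb (SD, n = 4), and among members with counts Ndufb4, of the membrane arm, was lowest at 0.711 ± 0.245 CPM per kb. Ndufc2, Ndufb11 and Ndufa4 followed at 118, 115 and 114 CPM per kb, and did not differ from each other beyond their spread. The core subunits listed here lay lower and far apart, at Ndufs8 (42.2), Ndufv2 (35.4), Ndufv1 (34.6), Ndufs1 (23.0), Ndufs7 (16.5) and Ndufs3 (14.8 CPM per kb). Ndufs8, Ndufv2 and Ndufv1 were neighbours within their spread, as were Ndufs7 and Ndufs3. Ndufb4 and Ndufs5, with 173 and 48 counts over all libraries, did not pass the filter and were not tested. Ndufa4l2, which carries the family name but is known as a hypoxia-induced relative of Ndufa4, had no count in any library. By counting error only, this allows at most 0.529 to 1.40 CPM per library (3 counts). Ndufa4l2 overlaps Shmt2 on the opposite strand, which held 20895 counts. The bound may not hold if counting ignored strand, which is not given in the sources used here.

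The summed level of the members did not separate the groups. It was 2352 ± 378 CPM in basal Control cells (SD, n = 4), 2168 ± 203 in FoxK1 KD, 2304 ± 204 in FoxK2 KD and 2301 ± 136 in DKD cells at basal. After insulin it was 2247 ± 220 in Control (n = 3), 2335 ± 134 in FoxK1 KD, 2295 ± 192 in FoxK2 KD and 2307 ± 179 CPM in DKD cells (n = 3). In basal Control cells replicate 1 was highest, at 2864 CPM, and replicates 2 to 4 were at 2019, 2406 and 2119 CPM. The ranges of the 8 groups overlapped. In bulk RNA, fewer cells and less RNA per cell cannot be told apart.

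In basal DKD cells, single subunits moved in both directions against Control. The proportion of members called was 7 of 35, against 21.1% of all 11368 genes (edgeR quasi-likelihood test, Benjamini-Hochberg adjusted p below 0.05). Of these, 4 rose (10.3% of all genes) and 3 fell (10.8% of all genes). The median log2 fold change was -0.00 over the members and -0.00 over all genes, with 17 members above 0 and 18 below. By role, 2 of the 4 Q-module core subunits and 2 of the 17 membrane-arm accessory subunits tested rose. Falls were called for 2 of the 3 N-module core subunits and 1 of the 9 peripheral-arm accessory subunits. Both core modules held changes in each direction, from -0.28 to 0.75 in the Q module and from -0.29 to 0.26 in the N module. At an adjusted p below 0.25, the study's looser threshold, 13 members were called (43.6% of all genes), and 5 with a fold above 1.5 as well (7.6%).

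**Figure D2:**
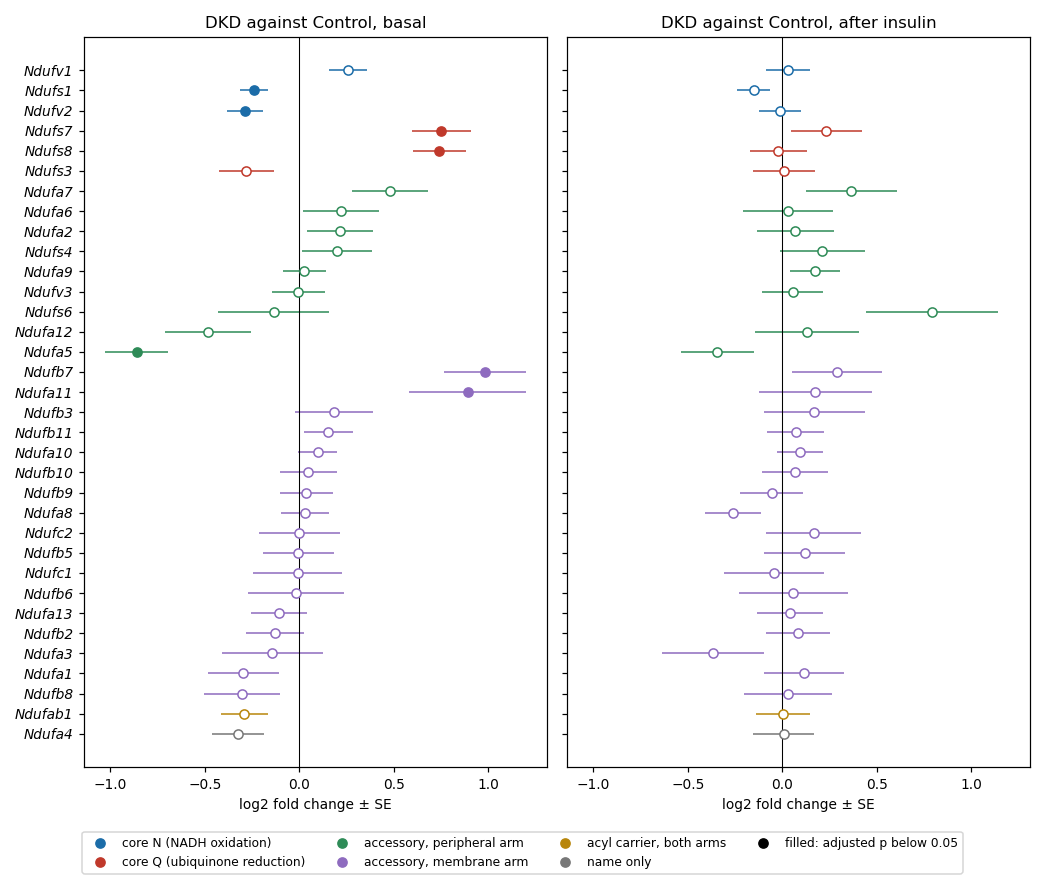
Log2 fold change ± SE of tested members in DKD against Control cells, at basal (left) and after insulin (right), grouped by role; filled points have an adjusted p below 0.05. At basal Ndufb7, Ndufa11, Ndufs7 and Ndufs8 rose and Ndufa5, Ndufv2 and Ndufs1 fell, and after insulin no point is filled.

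The promoters of the 4 members that rose, and of Ndufa5, which fell most, are shown for the letters that respiratory-gene regulators and forkhead factors are known to bind. They are RefSeq windows of 300 bases on GRCm38.p6, from 250 bases before to 50 after an annotated start, 5′ to 3′ on the gene's strand, with matches in capitals. The motifs searched on both strands were GTAAACA and ATAAACA (forkhead), the palindromic core of NRF1 (in capitals in Ndufa11, the same on both strands), CCGGAAG (ETS family, including GABP) and AAGATGGC (YY1).
Ndufs8, chr19:3912725-3913024, minus strand, 1 ETS match on the reverse strand: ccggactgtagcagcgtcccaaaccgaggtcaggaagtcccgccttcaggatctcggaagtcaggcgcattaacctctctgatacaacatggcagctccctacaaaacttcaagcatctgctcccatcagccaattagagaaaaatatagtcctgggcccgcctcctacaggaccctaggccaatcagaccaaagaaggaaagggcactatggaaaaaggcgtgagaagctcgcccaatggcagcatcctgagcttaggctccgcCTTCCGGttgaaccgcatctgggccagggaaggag
Ndufb7, chr8:83566508-83566807, plus strand, 1 ETS match: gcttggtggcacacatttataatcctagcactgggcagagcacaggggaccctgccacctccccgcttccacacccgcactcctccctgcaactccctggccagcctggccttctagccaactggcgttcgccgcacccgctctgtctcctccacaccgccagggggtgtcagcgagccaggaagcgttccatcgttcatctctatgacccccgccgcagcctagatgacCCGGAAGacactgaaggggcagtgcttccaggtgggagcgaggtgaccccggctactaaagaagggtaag
Ndufa11, chr17:56717512-56717811, plus strand, 1 NRF1 match: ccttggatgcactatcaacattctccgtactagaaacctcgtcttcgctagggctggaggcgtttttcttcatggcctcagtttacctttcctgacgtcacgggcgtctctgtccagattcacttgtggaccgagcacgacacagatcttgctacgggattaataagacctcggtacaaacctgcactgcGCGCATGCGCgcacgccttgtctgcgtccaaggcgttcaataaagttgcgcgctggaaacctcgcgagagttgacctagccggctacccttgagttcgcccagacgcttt
Ndufs7, chr10:80249199-80249498, plus strand, 1 YY1 match: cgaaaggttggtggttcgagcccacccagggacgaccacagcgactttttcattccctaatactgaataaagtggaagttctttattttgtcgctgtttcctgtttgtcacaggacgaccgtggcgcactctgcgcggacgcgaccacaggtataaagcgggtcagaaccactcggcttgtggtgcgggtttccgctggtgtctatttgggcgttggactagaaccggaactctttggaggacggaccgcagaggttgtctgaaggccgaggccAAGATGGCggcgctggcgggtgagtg
Ndufa5, chr6:24527477-24527776, minus strand, 1 of the gene's 2 windows, no match: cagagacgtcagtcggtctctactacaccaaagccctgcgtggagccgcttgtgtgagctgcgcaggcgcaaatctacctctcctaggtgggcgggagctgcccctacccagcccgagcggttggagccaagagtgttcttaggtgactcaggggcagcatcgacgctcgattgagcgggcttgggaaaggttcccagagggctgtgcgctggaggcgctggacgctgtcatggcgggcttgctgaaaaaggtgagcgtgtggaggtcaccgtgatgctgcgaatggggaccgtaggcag

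Windows were found for 33 members (35 windows). The YY1 letters stood in 7 of them (20.0%, against 2.75% of all 32851 windows), in Ndufa3, Ndufa9, Ndufb8, Ndufc1, Ndufs4, Ndufs6 and Ndufs7. The ETS letters stood in 4 (11.4%, against 8.86%), in Ndufb6, Ndufb7, Ndufs3 and Ndufs8, and the NRF1 letters in Ndufa11 alone (0.971% of all windows). Neither forkhead sequence occurred in a member's window, where 3.65% and 4.60% of all windows hold them. These matches describe the letters in these windows, not bound sites.

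Ndufs8, an iron-sulfur subunit on the path to ubiquinone, stood at 34.0, 59.0, 70.2 and 54.8 CPM in basal Control cells and at 83.3, 85.2, 102 and 97.1 CPM in basal DKD cells. All DKD libraries lay above all Control libraries. The rise was 1.67-fold (log2 fold change 0.74 ± 0.14 SE, adjusted p = 0.000253), and the lowest of the Control libraries was replicate 1. Ndufs7, which carries the last cluster before ubiquinone, stood at 31.5, 24.3, 28.0 and 29.3 CPM in Control and 53.7, 43.3, 54.6 and 40.3 CPM in DKD cells, again without overlap, a 1.68-fold rise (0.75 ± 0.16, adjusted p = 0.000721).

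Ndufb7, a membrane-arm accessory subunit on the side of the intermembrane space, was at 35.2, 29.8, 30.3 and 17.1 CPM in Control and 51.4, 46.0, 51.8 and 67.8 CPM in DKD cells. It rose 1.98-fold without overlap (0.98 ± 0.22, adjusted p = 0.00128). Ndufa11, another membrane-arm subunit, was at 2.27, 0.750, 1.98 and 2.86 CPM in Control and 3.45, 3.78, 4.63 and 3.59 CPM in DKD cells, from 35 and 49 counts in all. Its rise of 0.89 ± 0.31 (adjusted p = 0.0357) was no longer called by DESeq2, nor when any 1 DKD library or replicate 2 or 3 of Control was left out. The call was also lost with no filter on low counts and when only the groups compared were fitted. Ndufa11 also overlaps Vmac on the opposite strand, which held 1830 counts against its 397, and strand-specific counting is not given in the sources used here.

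Ndufa5, an accessory subunit of the peripheral arm, was at 35.7, 32.0, 34.2 and 45.0 CPM in Control and at 19.8, 18.9, 19.9 and 22.6 CPM in DKD cells. The groups did not overlap, and DKD cells held 55.1% of the Control level (-0.86 ± 0.17, adjusted p = 0.000354). Ndufv2, an iron-sulfur subunit of the N module, was at 70.9, 71.5, 84.6 and 77.0 CPM in Control and 62.0, 60.5, 62.0 and 64.7 CPM in DKD cells (-0.29 ± 0.10, adjusted p = 0.0286). Ndufs1, the largest core subunit, was at 200, 190, 180 and 174 CPM in Control and 147, 163, 153 and 166 CPM in DKD cells (-0.24 ± 0.07, adjusted p = 0.0192). Both falls were small, at 82.0% and 84.7% of Control, and neither pair of groups overlapped. The Ndufv2 call was lost without replicate 3 or 4 of Control or replicate 1 or 2 of DKD cells, and the Ndufs1 call without replicate 1 of DKD cells. Both calls were also lost when only the groups compared were fitted, and that of Ndufs1 with no filter on low counts. Ndufs1 overlaps Eef1b2 on the opposite strand, which held 68453 counts.

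Ndufv1 and Ndufs3, also core subunits, did not pass the test at basal. Ndufv1, which binds NADH and FMN, differed by 0.26 ± 0.10 (adjusted p = 0.0594) and Ndufs3 by -0.28 ± 0.15. Among membrane-arm subunits, Ndufb3 differed by 0.18 ± 0.21, Ndufc2 by 0.00 ± 0.22, Ndufb2 by -0.13 ± 0.15 and Ndufa1 by -0.30 ± 0.19, and none of these was called. Ndufa4, now known as a subunit of complex IV, differed by -0.32 ± 0.14 (adjusted p = 0.0946). Without replicate 1 of basal Control cells, the same 7 members kept their calls and Ndufa2 (0.51 ± 0.15, adjusted p = 0.00995) and Ndufv1 (0.36 ± 0.10, adjusted p = 0.00528) joined them as higher.

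The calls at basal moved with base composition. The 4 members that rose had an exon GC content of 54.4 to 58.8%, the 3 that fell of 44.2 to 48.6%, and the 28 not called of 43.0 to 60.4%. Across the 35 members the log2 fold change correlated with GC content (Spearman's rho 0.47, a description over genes that share libraries). Without replicate 1 of basal Control cells rho was 0.66. Within libraries, the deviation of each gene from its mean correlated with GC content at 0.20 to 0.46 in basal DKD cells, and at -0.31 to 0.18 in basal Control cells, where replicate 1 was the one above 0. A trend on GC content and length was then removed from every library, which by itself lowers such a correlation. With all libraries, rho over the members was then 0.12, and 7 members were called, 3 higher and 4 lower. Ndufb7 (0.87 ± 0.21), Ndufs7 (0.50 ± 0.13), Ndufs8 (0.47 ± 0.16) and Ndufa5 (-0.94 ± 0.15) kept their calls. Ndufa11, Ndufv2 and Ndufs1 lost them, and Ndufa12 and Ndufa13 were among those called lower instead. The part of base composition in the differences was not tested further.

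**Figure D3:**
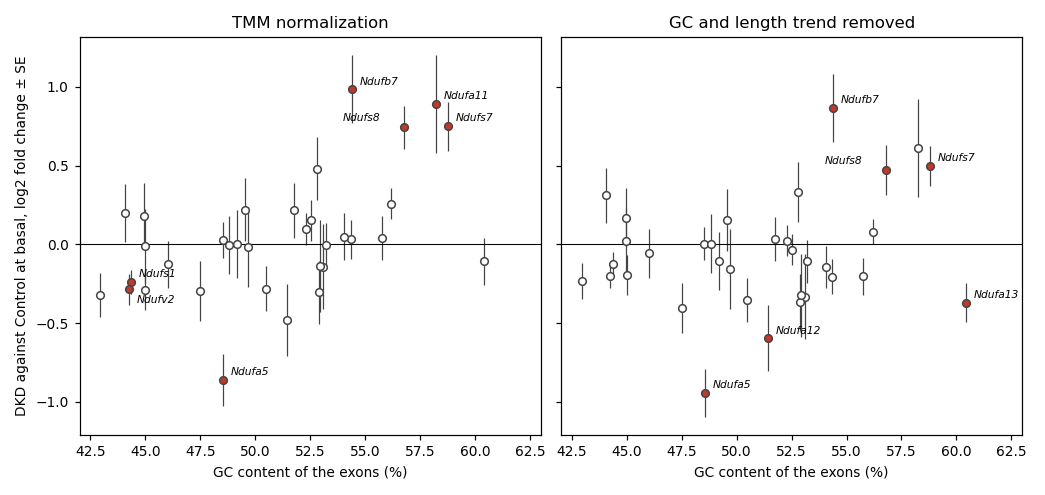
Log2 fold change ± SE in DKD against Control cells at basal for tested members against the GC content of their exons (%), with TMM normalization (left) and with the GC and length trend removed (right); red points have an adjusted p below 0.05. The red points above 0 lie at high GC content on the left, and Ndufb7, Ndufs7, Ndufs8 and Ndufa5 stay red on the right.

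Neither single knockdown gave a called member at basal. For FoxK1 KD against Control, edgeR called 0 of 35 members, where 8.09% of all genes were called, with 9 members at an unadjusted p below 0.05. DESeq2 called 1 (Ndufa12, lower, chosen after its values were seen) and limma-voom 0. At an adjusted p below 0.25 there were 10 (26.6% of all genes), and 2 with a fold above 1.5 (3.6%). The summed biliary markers were at 534 to 610 CPM in FoxK1 KD cells, below every basal Control library, and their part was not tested. The values of the members named above were 0.32 ± 0.14 for Ndufs8, -0.40 ± 0.24 for Ndufb7, 0.01 ± 0.16 for Ndufs7 and -0.21 ± 0.15 for Ndufa5. Without replicate 1 of basal Control cells, Ndufs8 differed by 0.17 ± 0.12 and Ndufb7 by -0.26 ± 0.25. For FoxK2 KD against Control, edgeR called 0 of 35 (0.378% of all genes), with 3 members at an unadjusted p below 0.05 and 0 by DESeq2 and by limma-voom. There, Ndufs8 differed by 0.40 ± 0.14 (adjusted p = 0.212) and Ndufa11 by 0.85 ± 0.30 (adjusted p = 0.221), the 2 members at an adjusted p below 0.25 (3.59% of all genes), of which Ndufa11 passed a fold of 1.5 (0.792%). Without replicate 1 of basal Control cells, Ndufs8 differed by 0.25 ± 0.12.

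DKD cells also differed from each single knockdown at basal. Against FoxK1 KD cells 12 of 35 members were called (26.3% of all genes), 5 higher (13.8%) and 7 lower (12.5%), and the members' median was 0.15 against 0.01 over all genes. With the GC and length trend removed the members' median was -0.03. The summed hepatocyte markers were at 1651 to 1795 CPM in FoxK1 KD and 2276 to 2370 CPM in DKD cells, and the summed biliary markers at 534 to 610 and 643 to 694 CPM, without overlap; their part was not tested. The looser thresholds called 17 (50.3% of all genes) and, with the fold, 5 (8.42%). Ndufb7 was at 23.3, 12.5, 23.3 and 23.0 CPM in FoxK1 KD cells, all below the DKD libraries, and was 2.61-fold higher in DKD cells (1.38 ± 0.23, adjusted p = 5.59e-05). Ndufs7 (0.74 ± 0.16), Ndufv1 (0.48 ± 0.10), Ndufa2 (0.46 ± 0.18) and Ndufs8 (0.42 ± 0.14) were also higher. Ndufa1 (-0.65 ± 0.19), Ndufa5 (-0.65 ± 0.17), Ndufs3 (-0.59 ± 0.14), Ndufa4 (-0.58 ± 0.14) and Ndufab1 (-0.39 ± 0.12), the mitochondrial acyl carrier protein, were lower, as were Ndufv2 and Ndufs1. Ndufa1 and Ndufa4 overlapped between the groups although they were called. Replicate 2 of basal FoxK1 KD cells held the highest Ndufa4 level of all libraries, at 283 CPM, and without it Ndufa4 differed by -0.32, still called, and the calls of Ndufa1 and Ndufab1 were lost. The Ndufab1 call was also lost without replicate 4 of DKD cells. The Ndufa2 call was lost without any 1 of the 8 libraries, and that of Ndufs8 without any 1 of 4. With the GC and length trend removed, 7 members were called, 1 of them higher (Ndufb7).

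Against FoxK2 KD cells 6 of 35 members were called (17% of all genes), 3 higher (8.56%) and 3 lower (8.44%), and 13 (40.5%) and 3 (5.33%) at the looser thresholds. Ndufb7 (1.08 ± 0.22), Ndufs7 (0.55 ± 0.15) and Ndufv1 (0.40 ± 0.10) were higher, and Ndufa5 (-0.77 ± 0.17), Ndufa1 (-0.65 ± 0.18) and Ndufv2 (-0.34 ± 0.10) were lower. Ndufa5 was at 33.3, 29.4, 35.7 and 40.7 CPM in FoxK2 KD cells, above every DKD library, whereas Ndufs7 overlapped through replicate 3 of FoxK2 KD cells at 45.4 CPM. The Ndufs7 call was lost without replicate 1 of DKD cells or replicate 1 or 2 of FoxK2 KD cells, and that of Ndufv2 without replicate 4 of FoxK2 KD cells. The summed hepatocyte markers, at 1729 to 2083 CPM in FoxK2 KD cells, lay below those of all DKD libraries, and their part was not tested. With the GC and length trend removed, Ndufb7 was the 1 member higher and 4 were lower. These comparisons and that with Control share the 4 basal DKD libraries.

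After insulin, no member was called between a knockdown and Control. For DKD against Control, edgeR called 0 of 35 members (1.21% of all genes), with 1 at an unadjusted p below 0.05 (Ndufs6, 0.79 ± 0.35), and DESeq2 and limma-voom called 0. The looser thresholds also called 0 (6.66% and 1.85% of all genes). Ndufs6, with 820 counts in all, overlaps Mrpl36 on the opposite strand (3744 counts). Ndufs8 was at 131, 90.4 and 115 CPM in Control and 118, 115 and 99.5 CPM in DKD cells (-0.02 ± 0.15). Ndufb7 was at 60.6, 31.9 and 44.0 CPM in Control and 54.9, 46.8 and 65.0 CPM in DKD cells (0.29 ± 0.24), and Ndufa5 differed by -0.34 ± 0.19. The groups overlapped for all 3 genes. For FoxK1 KD and FoxK2 KD against Control, edgeR called 0 members (3.59% and 0.0264% of all genes), with 0 at an unadjusted p below 0.05 and 0 by DESeq2 and by limma-voom. At the looser thresholds 0 were called for FoxK1 KD (15.1% and 3.31% of all genes) and for FoxK2 KD (0.238% and 0.158%).

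A few subunits differed between insulin-stimulated and basal Control cells. Here 5 of 35 members were called (25.4% of all genes), 4 higher (12.4%) and 1 lower (13.1%), and the members' median was -0.02 against -0.01 over all genes. The looser thresholds called 10 (46.6%) and 4 (12%). Ndufs8 rose 2.05-fold (1.04 ± 0.15, adjusted p = 1.89e-06) from the basal values above, and every insulin library was above every basal library. Ndufa11, at 4.22, 4.42 and 4.40 CPM after insulin, rose without overlap (1.09 ± 0.32, adjusted p = 0.0112). Ndufb7 rose with overlap (0.74 ± 0.23, adjusted p = 0.0184). Ndufa3, a small membrane-arm subunit with 68 counts in basal Control cells, was at 4.54, 3.75, 4.71 and 3.21 CPM before and 7.38, 4.74 and 7.23 CPM after insulin (0.70 ± 0.26, adjusted p = 0.0411). This call was lost in 4 of 7 alternatives (DESeq2, no filter, only the groups compared, the GC and length trend removed), and Ndufa3, with 509 counts in all, overlaps Tfpt on the opposite strand (532 counts). The calls of Ndufb7 and Ndufa3 were lost without replicate 1 of insulin-stimulated Control cells, and that of Ndufa3 also without replicate 3. Without replicate 4 of basal Control cells Ndufb7 and Ndufa3 lost theirs, as did Ndufa3 without replicate 2. Without replicate 1 of basal Control cells, the called members kept their calls and Ndufb3 was called lower (-0.64 ± 0.21, adjusted p = 0.0238).

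In FoxK1 KD cells 6 of 35 members were called after insulin against basal (31.6% of all genes), 5 higher (16.2%) and 1 lower (15.4%). At the looser thresholds there were 18 (54%) and 3 (12.9%). Ndufb7 rose 2.29-fold (1.20 ± 0.23, adjusted p = 0.000174) and Ndufs8 1.68-fold (0.74 ± 0.14, adjusted p = 8.94e-05), both without overlap. Ndufb2 (0.60 ± 0.15) and Ndufb5 (0.51 ± 0.19), of the membrane arm, and Ndufa9 (0.30 ± 0.12), of the peripheral arm, were also higher, though Ndufb5 and Ndufa9 each lost their call without any 1 of 6 of the 8 libraries. The members' median was 0.17 here against 0.01 over all genes, with 25 members above 0, and with the GC and length trend removed it was 0.01. The summed hepatocyte markers were at 1651 to 1795 CPM at basal and 1986 to 2312 CPM after insulin, the biliary markers at 534 to 610 and 636 to 756 CPM, and their part was not tested. In FoxK2 KD cells 6 of 35 were called (28.1% of all genes), 3 higher (14.4%) and 3 lower (13.7%), and 12 (49.5%) and 2 (10.7%) at the looser thresholds. Ndufb7 (0.66 ± 0.22), Ndufs8 (0.61 ± 0.13) and Ndufv1 (0.26 ± 0.10) were higher, and Ndufa1 (-0.48 ± 0.18) and Ndufv2 (-0.38 ± 0.09) were among those lower. Ndufv1 and Ndufa1 each lost their call without any 1 of 7 of the 8 libraries, and Ndufb7 without any 1 of 3.

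In DKD cells 1 of 35 members was called after insulin against basal (16.3% of all genes, 8.31% higher). At the looser thresholds there were 10 (37.3%) and 0 (8.49%). Ndufb2, of the membrane arm, was at 40.8, 57.0, 57.8 and 54.9 CPM at basal and 88.5, 83.2 and 59.5 CPM after insulin, a rise of 0.55 ± 0.16 without overlap (adjusted p = 0.0168). Leaving out any 1 of 3 libraries (basal replicate 1, insulin replicates 1 and 2) ended this call. Ndufb2, with 6875 counts in all, overlaps Braf on the opposite strand (4071 counts). Ndufs8 differed by 0.27 ± 0.14 (adjusted p = 0.201), Ndufb7 by 0.04 ± 0.22 and Ndufs7 by -0.47 ± 0.17 (adjusted p = 0.0526). The summed hepatocyte markers were at 2276 to 2370 CPM before and 1777 to 2155 CPM after insulin, and their part was not tested.

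**Figure D4:**
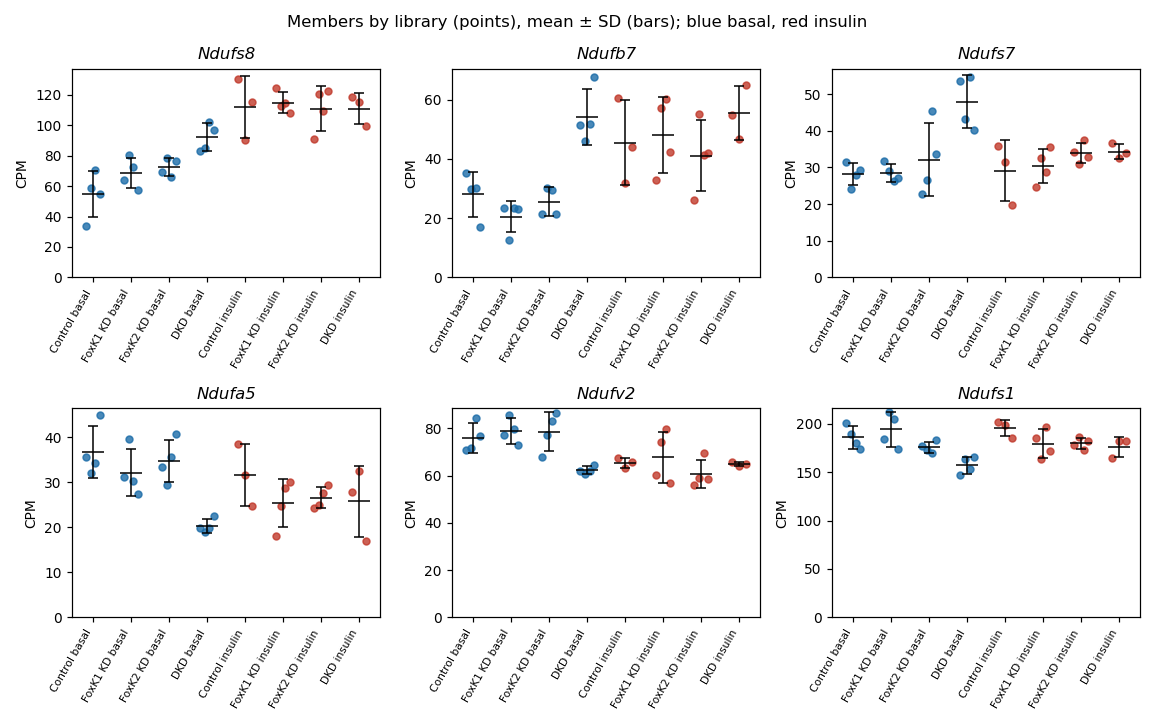
Level of 6 members in CPM (from 0) in each of the 8 groups; points are libraries, bars the mean ± SD, blue basal and red after insulin. Basal DKD cells lie above the other basal groups for Ndufb7 and below them for Ndufa5, and the means of the insulin groups lie at 111 to 115 CPM for Ndufs8.

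The effect of insulin was compared directly between DKD and Control cells. Of 35 members, 1 was called (1.54% of all genes; 0.537% lower), as at the looser thresholds (9.88% and 4.04%). For Ndufs8 the insulin effect was smaller in DKD cells by 0.76 ± 0.21 on the log2 scale (adjusted p = 0.0482), its mean in basal DKD cells, 92.0 ± 9.18 CPM (SD, n = 4), lying between 54.5 ± 15.1 in basal and 112 ± 20.2 CPM in insulin-stimulated Control cells. This call was lost with the GC and length trend removed, with the replicate number as a block, when only the groups compared were fitted, and when any 1 of 10 of the 14 libraries was left out. Ndufb7 (-0.69 ± 0.32), Ndufa11 (-0.72 ± 0.43) and Ndufs7 (-0.52 ± 0.24) did not pass the test. The difference rests on the same basal libraries as the comparisons above.

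**Figure D5:**
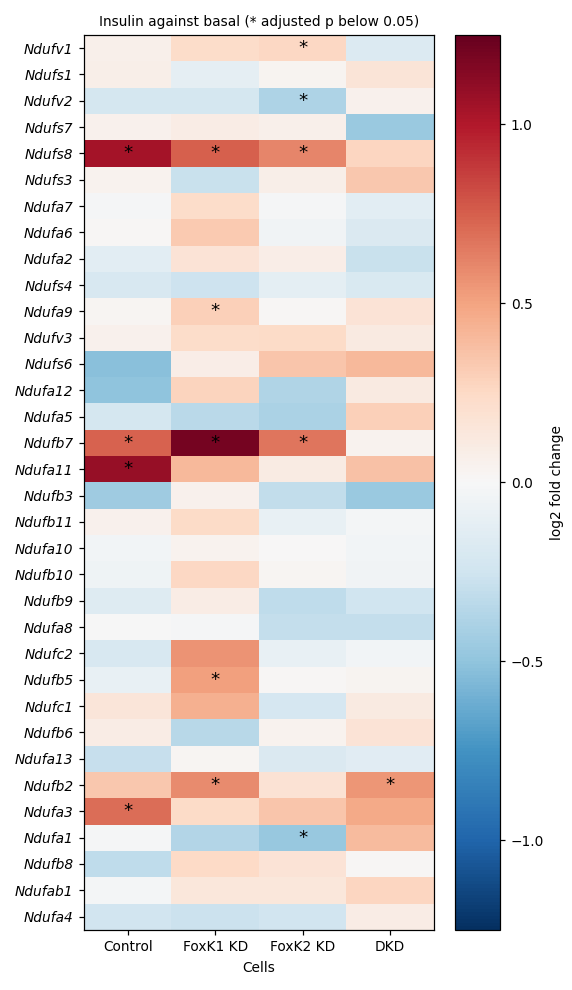
Log2 fold change of tested members after insulin against basal in the 4 kinds of cells, from blue (lower) to red (higher), in the order of the plot of DKD against Control; stars mark an adjusted p below 0.05. Ndufs8 and Ndufb7 carry a star in Control, FoxK1 KD and FoxK2 KD cells, and Ndufb2 carries the star in DKD cells.

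The level of Ndufs8 divided the libraries in the same way as a gene outside complex I, Gm42939, which was chosen after its values were seen. In the 12 basal libraries of Control, FoxK1 KD and FoxK2 KD cells, Ndufs8 was at 34.0 to 80.2 CPM and Gm42939 at 0 to 0.284 CPM. In the other 18 libraries, which are those of basal DKD cells and of all insulin groups, Ndufs8 was at 83.3 to 131 CPM and Gm42939 at 4.42 to 13.5 CPM. Ndufb7 overlapped between these sets of libraries, at 12.5 to 35.2 and 26.2 to 67.8 CPM, as did Ndufs7. The comparisons of insulin with basal in Control, FoxK1 KD and FoxK2 KD cells each lie across the division by Ndufs8 and Gm42939. So do those of basal DKD cells with the other basal groups. The labels give no preparation or sequencing batch, and a part of such a batch in these values was not tested.

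Other genes of the pathway were examined beside the members. Of the 7 complex I subunits encoded by mitochondrial DNA, which form the proton-pumping core, 6 were tested, and 5 fell in DKD against Control cells at basal (10.8% of all genes fell). Their median was -0.77, and mt-Nd6 (-1.15 ± 0.11, adjusted p = 8.14e-09), mt-Nd4 (-0.94 ± 0.16), mt-Nd5 (-0.90 ± 0.12), mt-Nd2 (-0.64 ± 0.14) and mt-Nd1 (-0.47 ± 0.15) carried it, while mt-Nd3 gave 1.04 ± 0.54. Between DKD and Control cells after insulin, 0 of the 6 were called (1.21% of all genes), with a median of 0.04. After insulin against basal, 4 of the 6 were lower in Control cells (13.1% of all genes), with a median of -0.67. The same count was lower in FoxK1 KD cells (15.4% of all genes, median -0.68) and in FoxK2 KD cells (13.7%, median -0.42). In DKD cells 0 differed in either direction (16.3% of all genes), where edgeR also gave 0 at an unadjusted p below 0.05. Libraries were made with an mRNA preparation kit. The ends of mt-Nd5 and mt-Nd6 overlap on opposite strands, so reads in the shared stretch cannot be told apart if counting ignored strand.

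Of 19 assembly factors, which build the complex and are not part of it, 18 were tested and 1 rose in basal DKD cells, where 10.3% of all genes rose (Dmac1, 0.56 ± 0.16, adjusted p = 0.0097), with a median of 0.07. After insulin in Control cells, Dmac1, Foxred1 and Ndufaf4 were higher (12.4% of all genes rose) and Dmac2 was lower (13.1% fell). Of 10 regulators of respiratory genes, 1 rose in basal DKD cells, Tfam (0.47 ± 0.12, adjusted p = 0.00361), which maintains and transcribes mitochondrial DNA, a count near the 10.3% over all genes. Among 40 tested nuclear subunits of complexes II to V, 1 rose and 8 fell in basal DKD cells (10.3% and 10.8% of all genes), with a median of -0.02. Cox7c, of complex IV, gave the largest fall of these (-1.79 ± 0.33, adjusted p = 0.000214).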

How the data were processed

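RNA-seq of 30 AML12 libraries was analysed from raw gene-level counts that the authors deposited, one table per sample. Per the labels and the study's methods, RNA was isolated with a column kit and libraries were made with an mRNA preparation kit. The submitters' processing notes name CASAVA 1.8, STAR 2.4.2a, featureCounts and GRCm38.p4. The featureCounts version, the use of strand and the handling of reads that map to several places are not given in the sources used here. The counts summed to 2141460 to 5668270 per sample, and precision is limited most for members with few counts.

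Of 49089 identifiers, 48435 matched GENCODE M21 by Ensembl identifier without version and took their symbols from it. Groups followed the labels. Genes were filtered with filterByExpr, scaled by TMM and fitted with the quasi-likelihood test of edgeR 4.0.16 in R 4.3.3, over all 8 groups in 1 model without covariates, and 13 comparisons were made. P-values were adjusted by Benjamini-Hochberg over the 11368 genes tested, and a gene was called at an adjusted p below 0.05. Levels are CPM of the scaled libraries. The code was tested on simulated data. Alternatives were DESeq2 1.42.0, limma-voom (limma 3.58.1), DESeq2 size factors, no filter, only the groups compared, the replicate number as a block, removal of a smooth trend on GC content and length, the study's looser thresholds (adjusted p below 0.25, alone or with a fold above 1.5) and leaving out each library.

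The members, gene lists and tests were chosen with earlier results of these data known. Named genes are the core subunits, Ndufa4 and Ndufa4l2, the members that the study names for DKD cells (chosen on these samples, so not independent evidence), up to 5 called members with the largest change in each direction of each comparison, and the highest and lowest by level per length. Counts and medians cover all members tested, but 1 member is not reported here by name or in figures. Promoters are RefSeq windows on GRCm38.p6. Comparisons of DKD with Control at basal and of insulin with basal in Control cells share the basal Control libraries.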

Additional observations from a re-analysis of the deposited data

Results flagged for a closer look

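Libraries far from the rest of their group were looked for among 126 pairs of a named member and a group of 4 libraries, and in the summed level, by the gap of the highest or lowest library relative to the group's range. Chance flags about 1 in 20 groups. Replicate 1 of basal Control cells stood high for Ndufb8 at 570 CPM. Replicate 1 of basal FoxK2 KD cells stood low for Ndufb8 at 167 CPM, for Ndufa4 at 135 CPM and for the summed level at 2002 CPM. In basal DKD cells replicate 3 stood high for Ndufa2 at 158 CPM and replicate 1 low for Ndufb2 at 40.8 CPM. Replicate 2 of basal FoxK1 KD cells stood low for Ndufb7 at 12.5 CPM. After insulin, FoxK1 KD cells had a low replicate 1 for Ndufb3 at 9.24 CPM and a low replicate 4 for Ndufs3 at 27.1 CPM, and FoxK2 KD cells a high replicate 4 for Ndufs3 at 37.2 CPM.

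The insulin effect on Ndufs8 differed between DKD and Control cells by -0.76 on the log2 scale, by the interaction term of the edgeR fit.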

How the results depend on the processing

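No called member reversed its direction. Members called, against the main counts given above, changed as follows. For FoxK1 KD against Control at basal, DESeq2 called 1, no filter 5, an adjusted p below 0.25 called 10 and that with a fold above 1.5 called 2; for FoxK2 KD no filter gave 2 and the looser thresholds 2 and 1. For DKD against Control at basal, fitting only the groups compared gave 4 and an adjusted p below 0.25 gave 13. Against FoxK1 KD, the GC and length trend removed gave 7 and the threshold with a fold 5. Against FoxK2 KD the looser thresholds gave 13 and 3. For insulin in Control cells, only the groups compared gave 1 and the looser p 10. In FoxK1 KD the looser thresholds gave 18 and 3, and in FoxK2 KD 12 and 2. In DKD cells DESeq2 gave 2, no filter 2, only the groups 4 and the looser thresholds 10 and 0. For the interaction, no filter gave 2, and only the groups compared, the replicate block and the GC and length trend removed each gave 0. The cause was not tested.

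Leaving out 1 library gave 0 to 4 members for FoxK1 KD and 0 to 0 for FoxK2 KD against Control at basal. It gave 4 to 9 for DKD against Control, 9 to 12 against FoxK1 KD and 5 to 6 against FoxK2 KD. It gave 0 to 0 for each knockdown against Control after insulin, 3 to 6 for insulin in Control, 4 to 7 in FoxK1 KD, 3 to 6 in FoxK2 KD and 0 to 3 in DKD cells, and 0 to 1 for the interaction. The FoxK1 KD count was 4 without replicate 2 and 3 without replicate 4 of basal Control cells, and 1 without Control replicate 3 or FoxK1 KD replicate 3 or 4. The count of DKD against Control was 4 without DKD replicate 1. That of insulin in Control cells was 3 without basal replicate 4 or insulin replicate 1 or 3. That of insulin in FoxK2 KD cells was 3 without basal replicate 4 or insulin replicate 2 or 4, and in DKD cells 2 without basal replicate 4 and 3 without insulin replicate 3.

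The replicate numbers did not pair the libraries: 8 of 99 same-numbered pairs correlated above 0.1, and 3 of 30 libraries correlated best with their own number. With the number as a block, the count for insulin in FoxK2 KD cells was 5 and 0 for the interaction. Precision is limited for members with few counts, such as Ndufa11 and Ndufa3.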
